A study of Homo sapiens with 3 samples.

Results

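Polycomb repressive complex 2 (PRC2) was followed through 10 genes that encode its core and accessory subunits, chosen by name: EZH2, EZH1, SUZ12, EED, RBBP4, RBBP7, JARID2, AEBP2, MTF2 and PHF19. All 10 were found by their Entrez identifiers among the 18331 identifiers of the deposited tables, and all 10 passed the filter on low counts that left 14016 genes for testing. RNA was taken from PC-3 cells, a long-established line of human prostate carcinoma, after 7 days of exposure to lentivirus carrying a short hairpin RNA (shRNA). In 2 libraries, called 1 and 2 here after their labels, the hairpin was directed at KMT2D and the annotation was KMT2D deficiency; in the 1 control library the hairpin was a control and the annotation was KMT2D normal. Separate cultures, different hairpins and selection of infected cells are not stated in the labels. The edgeR p-values rest on the spread between the 2 KMT2D shRNA libraries, borrowed largely across genes, and on none within the control. That spread may be technical.

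PRC2 places methyl groups on lysine 27 of histone H3, a mark of silenced genes. EZH2 or its paralog EZH1 supplies the catalytic SET domain, SUZ12 and EED are needed for activity, and RBBP4 or RBBP7 binds histones and also serves other chromatin complexes. Accessory proteins divide the complex into forms: JARID2 and AEBP2 mark one, and the Polycomb-like proteins MTF2 and PHF19 mark another. KMT2D works on the opposite side, as a histone H3 lysine 4 methyltransferase of enhancers in the same complex as the lysine 27 demethylase KDM6A. EZH2 is well studied in prostate cancer, where its level is raised in advanced disease.

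Of the 10 PRC2 genes, the KMT2D shRNA libraries had 1 higher and 0 lower than the control. The gene that rose was SUZ12, by 1.41-fold (edgeR quasi-likelihood test, Benjamini-Hochberg adjusted p = 0.0366), and this call was lost in 8 of 9 tested alternatives. Across all genes tested, 31.1% passed the same test, 16.5% higher and 14.5% lower. The share of PRC2 genes called was thus below that of all genes, and 9 of the 10 were not shown to differ. In bulk libraries fewer cells with a transcript and less RNA per cell cannot be told apart. EZH2, the main catalytic subunit, had a log2 fold change of 0.18 with a 95% interval of -0.26 to 0.63, so that a change as large as 1.54-fold up or to 0.835-fold down lay within the interval. The median log2 fold change of the 10 genes was 0.13, against -0.01 over all genes tested.

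The libraries held 5157482 and 5123794 counts in the KMT2D shRNA group, against 5559449 in the control. KMT2D RNA itself was not lower in the libraries labelled KMT2D shRNA: its level was 107 and 138 CPM (read counts scaled for library size), against 100.1 CPM in the control. Its log2 fold change was 0.29 by edgeR (adjusted p = 0.227). It turned to -0.65 (edgeR adjusted p = 0.00836) after correction for a dependence of fold changes on transcript length, described below for the PRC2 genes. With a GC content trend removed as well, KMT2D was at -0.56 and did not pass (edgeR adjusted p = 0.0570). The length of KMT2D is 19432 bases, where the fitted trend was 0.95 on the log2 scale, so the corrected values rest heavily on that trend. Directions are therefore given for the labelled libraries and not for a loss of KMT2D. The control stood apart in interferon-induced genes, 8 of which summed to 349.8 and 342 CPM in the KMT2D shRNA libraries, against 11614 CPM in the control, and the part of this state in the PRC2 values was not tested. Epithelial markers, 5 of 5 detected, summed to 836 and 881 CPM in the KMT2D shRNA libraries, against 1432 CPM in the control. The keratins KRT8, KRT18 and KRT19 carried most of this sum, with KRT19 at 409.6 and 421 CPM against 699 CPM. EPCAM was at 19.3 and 16.6 CPM against 24.5 CPM, while CDH1 went the other way, at 17.8 and 18.5 CPM against 12.7 CPM. The androgen-response genes KLK2 and KLK3 were at 0. The series text calls the profiles retinal. RCVRN was at 0, and 5 of 8 retinal markers had 3 counts or fewer in every library. The others were CRX, at 11.9 and 11.2 CPM against 20.2 CPM in the control, PDE6B and RPE65. PDE6B was at 3.06 and 3.55 CPM against 5.63 CPM, and RPE65 at 3.25 and 3.35 CPM against 2.18 CPM. Leukocyte markers summed to 70.5 and 78.6 CPM, against 185 CPM in the control, with CD3E at 0; CD68, at 45.9 and 55.8 CPM against 149 CPM in the control, carried most of this sum. Fibroblast markers summed to 426 and 448 CPM, against 419 CPM in the control. COL1A1 carried most of this sum, at 373 and 385 CPM against 397 CPM in the control. PDGFRA was at 39.0 and 47.1 CPM against 10.4 CPM, and DCN and LUM had 3 counts or fewer in every library. Endothelial markers summed to 135 and 102 CPM, against 69.6 CPM in the control, with VWF and CDH5 at 0. KDR carried most of the endothelial sum, at 116 and 83.0 CPM against 48.7 CPM in the control, while PECAM1 was at 19.3 and 18.9 CPM against 20.3 CPM.

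Per transcript length, RBBP7 was the most abundant PRC2 transcript and EZH1 and EED the least. On the FPKM scale (fragments scaled by transcript length and library total, as deposited), RBBP7 stood at 88.2 and 73.5 in the KMT2D shRNA libraries, against 64.8 in the control. RBBP4, PHF19 and SUZ12 followed, from 13.2 to 26.6 FPKM over the 3 libraries. EZH2 had 9.59 and 11.7 FPKM, against 9.27 in the control, close to the middle of all tested genes (percentiles 50.9 and 57.5, against 51.7). JARID2, MTF2 and AEBP2 lay between 3.99 and 9.17 FPKM, and EZH1 and EED between 3.18 and 3.81 FPKM. Within each library RBBP4 stood above SUZ12. RBBP4 and PHF19 changed places between libraries, as did EZH1 and EED, so the order within those pairs was not resolved.

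**Figure D1:**
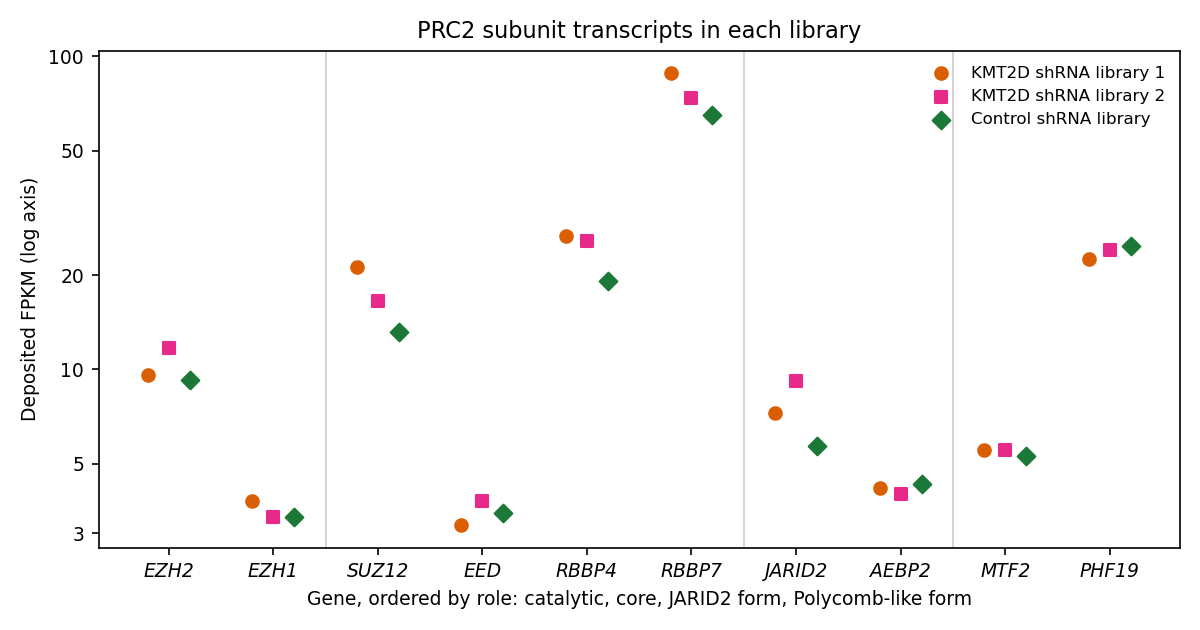
Deposited FPKM (log axis) of the 10 PRC2 genes, ordered by role, in each KMT2D shRNA library and in the control library; each point is 1 library. RBBP7 is the highest gene in all 3 libraries, and EZH1 and EED lie between 3.18 and 3.81 FPKM. On this scale EZH2, SUZ12, RBBP4, RBBP7, JARID2 and MTF2 have both KMT2D shRNA points above the control point, and AEBP2 and PHF19 have both below it. The share of all genes on this scale was not computed. By CPM the groups overlap for EZH2 (25.0 and 31.9, against 25.1 in the control), AEBP2 and PHF19.

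The catalytic pair was examined first. EZH2 had 25.0 and 31.9 CPM in KMT2D shRNA libraries 1 and 2, against 25.1 CPM in the control, from 131, 162 and 138 counts. Library 1 thus lay at the control level and library 2 above it, and the groups overlapped. Relative to the control, EZH2 was 0.999-fold in library 1, with a 95% interval of 0.780 to 1.28 for counting error only, and 1.27-fold in library 2, with an interval of 1.01 to 1.61. EZH2 averaged 28.5 ± 4.87 CPM (SD, n = 2) in the KMT2D shRNA group, and the difference from the control was within that spread (edgeR adjusted p = 0.565). EZH1, the paralog that prevails in resting tissue, had 17.6 and 16.0 CPM, against 16.0 CPM in the control, with a log2 fold change of 0.07 (95% interval -0.43 to 0.57, edgeR adjusted p = 0.866). EZH2 exceeded EZH1 per length in every library. The ratio of EZH2 to EZH1 on the FPKM scale was 2.52 (95% counting interval 1.92 to 3.33) and 3.48 (2.65 to 4.61) in the KMT2D shRNA libraries, against 2.75 (2.09 to 3.64) in the control. These intervals overlap, so a shift between the catalytic paralogs was not detectable at this depth.

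Among the core partners, SUZ12, RBBP4 and RBBP7 were above the control in both KMT2D shRNA libraries and EED was not. SUZ12, which holds the complex together, had 94.6 and 75.1 CPM in the KMT2D shRNA libraries, against 60.1 CPM in the control, from 495, 381 and 331 counts. Both labelled libraries were higher and they also differed from each other, with a ratio of library 2 to library 1 of 0.794 (95% counting interval 0.693 to 0.909). The log2 fold change of SUZ12 was 0.50 (SE 0.19, 95% interval 0.12 to 0.87, edgeR adjusted p = 0.0366), and its adjusted p ran from 0.0349 to 0.527 over the alternatives. With the length trend removed, the log2 fold change of SUZ12 was 0.29 and did not pass (edgeR adjusted p = 0.295). Without library 1 it was 0.32 and without library 2 it was 0.66, with no test. SUZ12 has a transcribed pseudogene copy, SUZ12P1, listed at 21 and 16 counts against 18 in the control, so a part of the SUZ12 reads could be split between these genes.

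RBBP4, a histone-binding WD-repeat protein shared with deacetylase and chromatin assembly complexes, had 211 and 208 CPM in the KMT2D shRNA libraries, against 156 CPM in the control. The labelled libraries averaged 209 ± 1.78 CPM (SD, n = 2), and both were above the control. The log2 fold change of RBBP4 was 0.43 (95% interval 0.08 to 0.77), which missed the threshold (edgeR adjusted p = 0.0534). RBBP7, its paralog, had 175 and 149.6 CPM, against 132 CPM in the control, a log2 fold change of 0.30 (95% interval -0.06 to 0.65, edgeR adjusted p = 0.203). The ratio of RBBP4 to RBBP7 on the FPKM scale was 0.302 (95% counting interval 0.276 to 0.330) and 0.349 (0.318 to 0.384) in the KMT2D shRNA libraries, against 0.296 (0.267 to 0.327) in the control. Library 1 thus matched the control within counting error, while the interval of library 2 met that of the control only over a narrow range. EED, which reads the methyl mark and stimulates the enzyme, was the gene with the fewest counts, 36 and 41 in the KMT2D shRNA libraries, against 40 in the control. EED levels of 6.88 and 8.08 CPM lay on either side of 7.27 CPM in the control, and the 95% interval of its log2 fold change ran from -0.68 to 0.76, the widest of the 10 genes.

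The accessory subunits of both forms gave 1 gene near the threshold and 3 near 0. JARID2, a DNA-binding member of the jumonji family that helps recruit the complex, had 43.4 and 54.6 CPM in the KMT2D shRNA libraries, against 34.7 CPM in the control. Both labelled libraries were above the control, with ratios of 1.25 (95% counting interval 1.03 to 1.52) and 1.57 (1.30 to 1.90). The log2 fold change of JARID2 was 0.50 (SE 0.20), as large as that of SUZ12, but missed the threshold (edgeR adjusted p = 0.0547). AEBP2, a zinc finger protein found with JARID2, had 23.5 and 22.5 CPM, against 23.4 CPM in the control (edgeR adjusted p = 0.943). MTF2, a Polycomb-like protein that binds unmethylated CpG islands, had 22.6 and 23.3 CPM, against 22.0 CPM in the control (edgeR adjusted p = 0.873). PHF19, a Polycomb-like protein that reads methylated lysine 36 of histone H3, had 33.4 and 43.4 CPM, against 38.0 CPM in the control, and the labelled libraries lay on either side of it. For AEBP2, MTF2 and PHF19 the log2 fold changes were -0.03, 0.06 and 0.02, and their 95% intervals lay between -0.47 and 0.51.

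**Figure D2:**
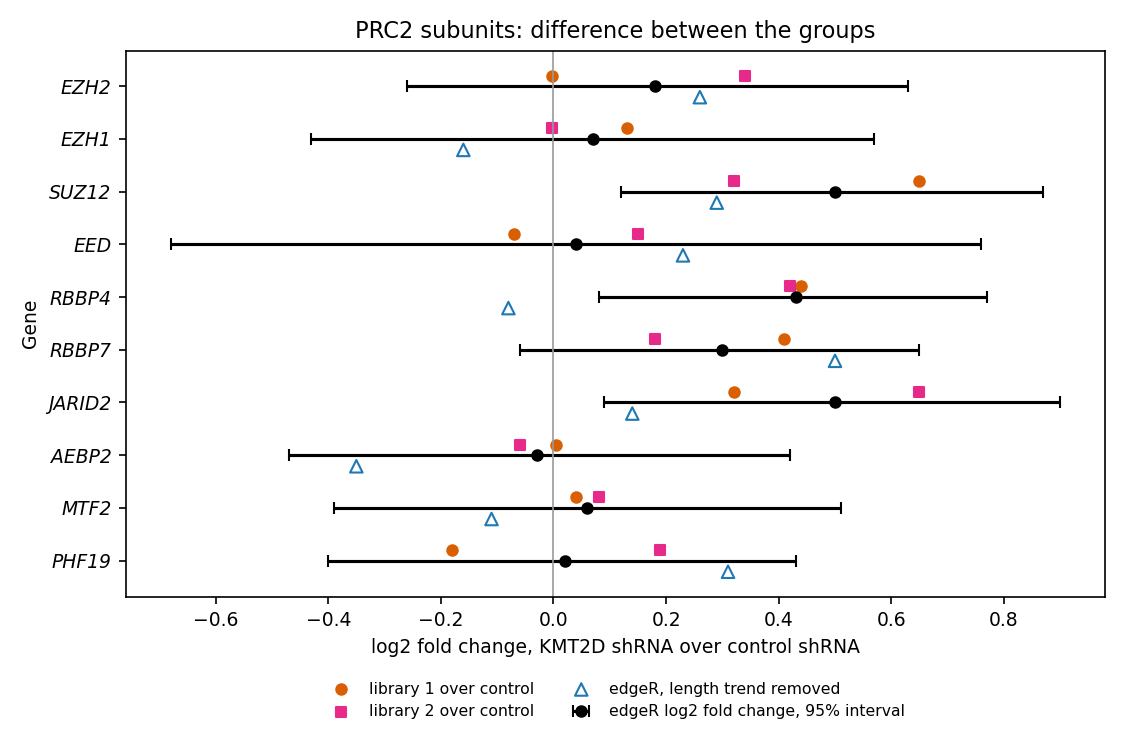
Log2 fold change of KMT2D shRNA over control shRNA for the 10 PRC2 genes. Black points and bars are the edgeR estimate and its 95% interval, filled coloured points are each KMT2D shRNA library over the control, and open triangles are the estimate with the length trend removed. The intervals of SUZ12, RBBP4 and JARID2 lie above 0 before adjustment for the number of genes, and the triangle of RBBP4 lies at -0.08.

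By CPM, both KMT2D shRNA libraries were above the control in 5 of the 10 genes, SUZ12, RBBP4, RBBP7, JARID2 and MTF2, and in 0 were both below. Over all genes tested, both labelled libraries were above the control in 41.5% and below it in 42.8%. At an unadjusted p under 0.05, 3 genes were higher, SUZ12, RBBP4 and JARID2. Over all genes tested, 5711 of 14016 had such a p in either direction, so 3 of 10 is not more than that share. The labelled libraries themselves differed by more than counting error in 5 genes: EZH2, JARID2 and PHF19 were higher in library 2, with ratios of library 2 to library 1 of 1.28, 1.26 and 1.30, and SUZ12 and RBBP7 were lower there, with ratios of 0.794 and 0.853. RBBP4, AEBP2, MTF2, EZH1 and EED did not differ beyond counting error between those libraries. Library 1 and library 2 differed above sampling noise across all genes as well (chi-square 5.31 per gene). The share of all genes beyond counting error was not computed, so the 5 genes are not shown to stand out.

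Long transcripts were higher and short ones lower in the libraries labelled KMT2D shRNA, across the transcriptome, and the PRC2 genes span this range, from 1613 bases for PHF19 to 7943 bases for RBBP4. The rank correlation of length with fold change across genes was 0.456 in library 1 and 0.460 in library 2, where genes are not independent replicates and both libraries share the control. The fitted trend was 0.51 on the log2 scale at the length of RBBP4, 0.36 at that of JARID2, 0.21 at that of SUZ12, -0.20 at that of RBBP7 and -0.29 at that of PHF19. With the trend removed, RBBP4 was at -0.08 (edgeR adjusted p = 0.784) and JARID2 at 0.14 (edgeR adjusted p = 0.675). RBBP7, one of the shorter transcripts, was then at 0.50 and was the 1 PRC2 gene that passed (edgeR adjusted p = 0.0425), where 18.6% of all genes passed. With a GC content trend removed as well, RBBP7 was at 0.42 (edgeR adjusted p = 0.107) and 0 of the 10 passed, against 13.0% of all genes. At an unadjusted p under 0.05 there were 2, RBBP7 and AEBP2, against 4027 of 13709 genes. The PRC2 gene that passed thus differed between the fits with and without the length trend. EZH2 passed in neither, and was at 0.26 in the corrected fit (edgeR adjusted p = 0.445).

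**Figure D3:**
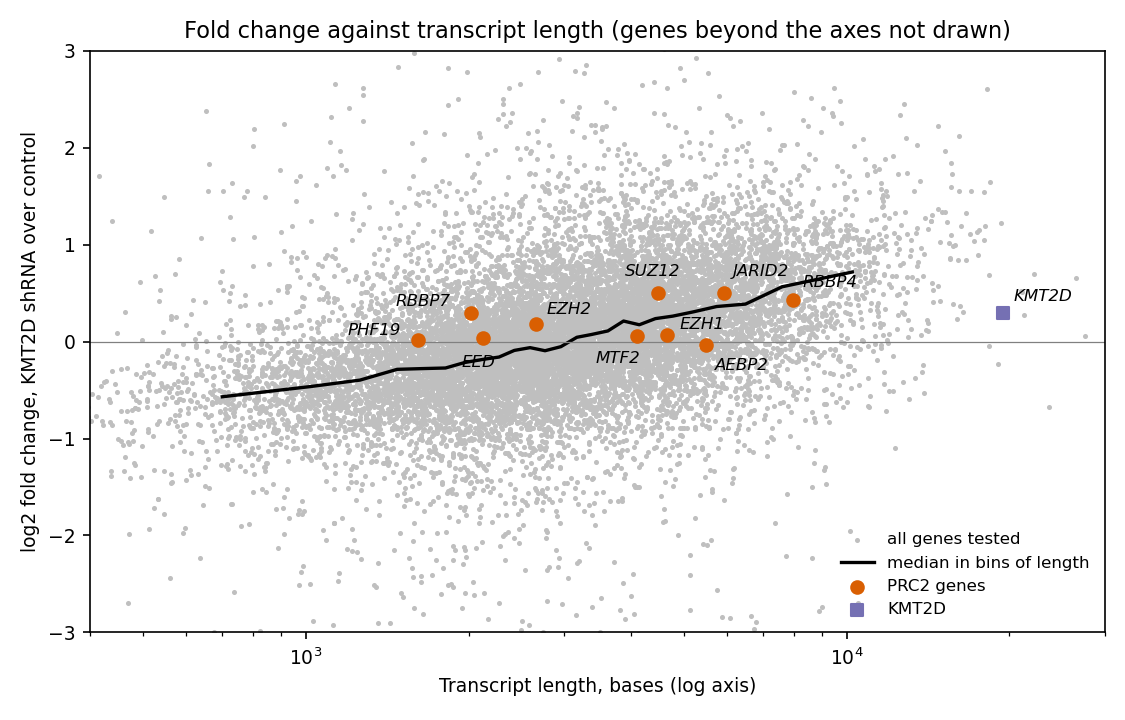
Log2 fold change of KMT2D shRNA over control against transcript length (log axis) for all genes tested within the axes, with the median in bins of equal gene number, the 10 PRC2 genes and KMT2D. RBBP4 lies near the median of genes of its length, RBBP7, PHF19 and EZH2 lie above theirs, and AEBP2 and KMT2D lie below.

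The deposited length of a gene with several RefSeq transcripts is an average that differed between libraries, for PHF19 the most relative to its length. Its length was 1516 and 1802 bases in the KMT2D shRNA libraries, against 1522 bases in the control, from a pair of listed transcripts. Library 2 thus stood apart from library 1 and the control. FPKM divides by this length, so PHF19 had 22.6 and 24.0 FPKM, against 24.8 FPKM in the control, with the highest value in the control, whereas its CPM was highest in library 2. SUZ12 and EZH1 have 1 listed transcript each, and their lengths of 4477 and 4654 bases were the same in all libraries.

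The promoters were read for letters of the E2F binding motif, because EZH2 and EED are known as targets of the E2F factors of the cell cycle. In the 250 bases before each annotated start (RefSeq, GRCh38.p14, 15 starts for the 10 genes), TTTCCCGC, TTTCGCGC, TTTGCCGC or TTTGGCGC on either strand was present at 4 starts, those of SUZ12, EZH1, AEBP2 and PHF19, against 2.79% of 35116 promoters. The EZH2 windows did not hold these letters, which says only that they are not in these windows. The letters CCAAT on either strand, searched as a common promoter element, occurred before 10 of the 15 starts and in 32.0% of all promoters, and EZH2 has 4 matches before 1 of its starts. No E2F match overlapped a CCAAT match. Capitals mark the matches, and a match is not evidence of binding. The windows of the called gene SUZ12, of the other E2F matches and of EZH2 read as follows.
SUZ12, chr17:31936778-31936865, plus strand: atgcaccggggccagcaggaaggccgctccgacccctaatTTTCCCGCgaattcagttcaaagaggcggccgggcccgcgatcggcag
EZH1, chr17:42745108-42745195, minus strand: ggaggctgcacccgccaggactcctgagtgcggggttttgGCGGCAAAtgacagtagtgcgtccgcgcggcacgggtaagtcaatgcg
AEBP2, chr12:19440409-19440496, plus strand: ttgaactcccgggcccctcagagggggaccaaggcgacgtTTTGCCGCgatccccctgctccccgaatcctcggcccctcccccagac
PHF19, chr9:120877293-120877380, minus strand: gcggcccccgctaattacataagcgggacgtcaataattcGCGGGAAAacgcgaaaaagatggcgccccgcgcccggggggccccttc
EZH2, chr7:148884292-148884405, minus strand: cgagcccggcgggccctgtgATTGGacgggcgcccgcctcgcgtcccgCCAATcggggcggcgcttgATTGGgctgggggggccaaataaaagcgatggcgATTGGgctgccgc
Of the 4 genes with the E2F letters, SUZ12 was called, and EZH1, AEBP2 and PHF19 had log2 fold changes between -0.03 and 0.07.

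On the list of E2F factors and proliferation genes, 11 of 23 rose by edgeR, 0 fell and 12 did not pass. Among all genes tested 16.5% rose and 14.5% fell. The list median was 0.55 on the log2 scale. DESeq2 gave an adjusted p for 20 of them and 3 passed, TOP2A, MKI67 and MCM6, where 11.5% of all genes passed. TOP2A, which untangles DNA at mitosis, had 209.9 and 195 CPM in the KMT2D shRNA libraries, against 57.0 CPM in the control (log2 fold change 1.83, edgeR adjusted p = 1.26e-10). The proliferation marker MKI67 rose by 1.45 on the log2 scale, MCM6 of the replicative helicase by 1.10 and the pocket protein gene RBL1 by 1.02. With the length trend removed 10 of the 23 passed, all higher, with a median of 0.42, where 18.6% of all genes passed. With the GC trend removed as well 8 passed, all higher, where 13.0% of all genes passed. EZH2, at 0.18, lay below that list's median in both fits. The patterns nearest to EZH2 over the 3 libraries were those of FANCG, RETSAT and PRUNE1, within 0.0152 (Euclidean distance of both per-library log2 fold changes), and 129 tested genes lay within 0.1, so the likeness is not specific.

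The remaining Polycomb genes were compared as lists, by their counts and medians alone. Beside these counts, 31.1% of all genes passed by edgeR, 16.5% higher and 14.5% lower, and 11.5% passed with DESeq2. With the length trend removed 18.6% of all genes passed, and with the GC trend removed as well 13.0%. Among the other PRC2 accessory subunits, 4 of 5 were tested (PHF1, EPOP, LCOR and LCORL). In edgeR 0 passed, with 1 at an unadjusted p under 0.05, against 5711 of all 14016 genes. With DESeq2 or with the length trend removed 0 passed. PHF1, the third Polycomb-like protein, was nearest to the threshold, with 52.4 and 54.2 CPM against 71.6 CPM in the control (log2 fold change -0.43, edgeR adjusted p = 0.0631). PRC1 is the complex that ubiquitinates histone H2A and compacts chromatin. Of its 22 tested subunits, 6 rose and 2 fell by edgeR, with a median of -0.04. DESeq2 gave an adjusted p for 20 of them, and 1 passed. CBX6, a chromodomain subunit, had 59.8 and 80.8 CPM in the KMT2D shRNA libraries, against 23.4 CPM in the control (log2 fold change 1.58, edgeR adjusted p = 9.23e-08). CBX2, another chromodomain subunit, rose by 1.25, the corepressor BCOR by 0.76 and the demethylase KDM2B by 0.51 on the log2 scale. PCGF5 fell by 0.74 and the ubiquitin ligase RING1 fell by 0.48. With the length trend removed CBX6, CBX2 and PCGF5 passed in this list, 2 higher and 1 lower, and with the GC trend removed as well CBX2 no longer passed (edgeR adjusted p = 0.0514). CBX6 was the gene that passed with DESeq2. Of the 5 tested subunits of PR-DUB, which removes the H2A ubiquitin, ASXL2 alone rose, at 67.5 and 79.2 CPM against 16.0 CPM in the control (log2 fold change 2.20, edgeR adjusted p = 3.51e-11). In the length-corrected fit ASXL2 was at 1.74 (edgeR adjusted p = 1.70e-07), and FOXK1, which had not passed, was lower at -0.78 (edgeR adjusted p = 0.00127).

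Of 9 other enzymes that act on lysine 27 or 36 of histone H3, 7 rose, and most have long transcripts. Among all genes 16.5% rose by edgeR, 18.6% passed with the length trend removed and 11.5% passed with DESeq2. EP300 and CREBBP, which acetylate lysine 27, had log2 fold changes of 1.20 and 0.62, and the demethylase KDM6B 0.65, all past the threshold, while KDM6A, the partner of KMT2D, had 44.5 and 39.6 CPM against 37.2 CPM in the control and did not pass (0.18, edgeR adjusted p = 0.536). With the length trend removed EP300 alone passed of these 4, at 0.64 (edgeR adjusted p = 0.0115). Of the 5 lysine 36 methyltransferases, whose mark restrains PRC2, 4 rose: ASH1L by 1.18, NSD1 by 0.96, NSD3 by 0.95 and NSD2 by 0.73 on the log2 scale. With the length trend removed NSD3 alone passed, at 0.73 (edgeR adjusted p = 0.0112), and with the GC trend removed as well it did not (edgeR adjusted p = 0.0536). With DESeq2 EP300, ASH1L, NSD1 and NSD2 passed and NSD3 did not (DESeq2 adjusted p = 0.0656). The 5 lysine 36 methyltransferases have a median length of 8452 bases and the 4 lysine 27 enzymes of 7732 bases, against 2962 bases over all genes tested.

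Of 13 tested subunits of NuRD and CAF-1, complexes that share RBBP4 or RBBP7, 2 rose and 1 fell, with a median of -0.04. The shares of all genes were 16.5% higher and 14.5% lower. The remodelers CHD3 and CHD4 rose by 0.65 and 0.54 on the log2 scale, calls lost with the length trend removed, and MBD3 fell by 0.67 (edgeR adjusted p = 0.00217), or by 0.57 with the trend removed (edgeR adjusted p = 0.0152). In that fit 2 passed as lower, MBD3 and GATAD2A, and 0 as higher, where 18.6% of all genes passed. With the GC trend removed as well MBD3 was at -0.35 (edgeR adjusted p = 0.139), and HDAC2 alone passed, as lower, at -0.57 (edgeR adjusted p = 0.0332). With DESeq2 0 of the 13 passed, where 11.5% of all genes passed, and MBD3 had an adjusted p of 0.0970.

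Genes that PRC2 is known to silence gave calls in both directions. Of all genes tested, 16.5% rose and 14.5% fell by edgeR, so calls in both directions are not particular to these genes. Of 11 tested genes reported as repressed by EZH2 in cancer cells, 1 rose and 1 fell, with a median of 0.04. SLIT2, a guidance ligand, had 85.2 and 138 CPM in the KMT2D shRNA libraries, against 27.6 CPM in the control (log2 fold change 2.02, edgeR adjusted p = 8.28e-10). The transcription factor gene KLF2 had 3.44 and 2.56 CPM, against 10.2 CPM in the control (log2 fold change -1.75, edgeR adjusted p = 0.000696). The others included DAB2IP, known from prostate cancer, at 0.34 (log2 fold change), which did not pass. Of 21 tested HOX genes, a classical Polycomb target family, 2 rose, 1 fell and 18 did not pass, with a median of -0.10. HOXB13, a prostate lineage factor, had 492 and 464 CPM, against 321 CPM in the control (log2 fold change 0.58, edgeR adjusted p = 0.00691), HOXA13 rose by 0.63, and HOXB9 fell by 0.75 on the log2 scale. These calls on SLIT2, KLF2, HOXB13, HOXA13 and HOXB9 passed with the length trend removed as well. With the GC trend also removed SLIT2 and HOXB13 passed, and KLF2 (edgeR adjusted p = 0.0644), HOXA13 (edgeR adjusted p = 0.101) and HOXB9 (edgeR adjusted p = 0.0875) did not. With DESeq2 SLIT2 and HOXB13 passed, HOXA13 and HOXB9 did not, and KLF2 had no adjusted p. Histone methylation was not measured.

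**Figure D4:**
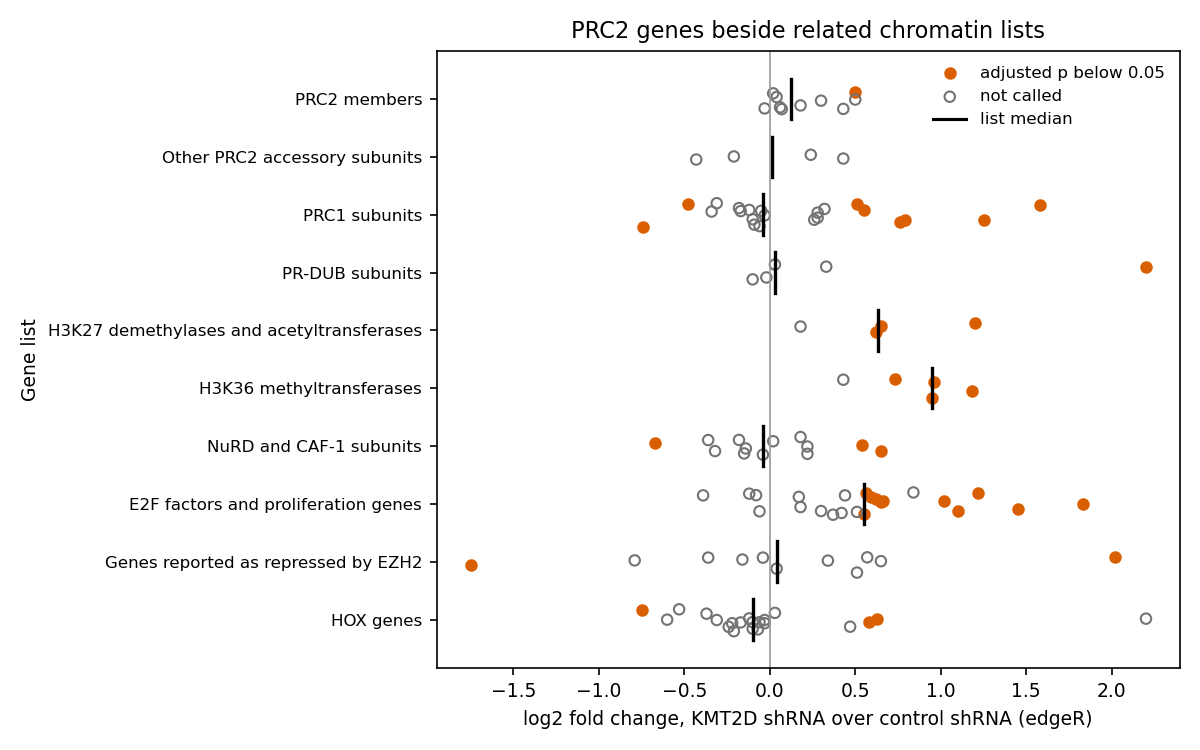
Log2 fold change of KMT2D shRNA over control shRNA for each tested gene of the PRC2 list and of related lists. Filled points passed the edgeR test, open points did not, and black lines are list medians, which are 0.13 for PRC2, 0.55 for E2F factors and proliferation genes and 0.95 for lysine 36 methyltransferases.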

How the data were processed

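Messenger RNA of 3 PC-3 libraries was selected with oligo(dT), fragmented, random-primed and sequenced on a BGISEQ-500, per the labels' protocols. The submitters' processing notes name HISAT, Bowtie2 and the build hg19, without roles. The authors deposited expected counts (estimated reads per gene, not normalized), FPKM and a transcript length in bases (the other deposited value) for each gene, per the file headers. No step marks strand, so overlapping genes cannot be told apart.

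The tables were joined on Entrez identifiers, and 99.5% were named from RefSeq (GRCh38.p14, used for names and promoter letters). A gene absent from a table was taken as 0. Expected counts were rounded and tested with edgeR 4.0.16 in R 4.3.3 (default filter by group, TMM scaling, quasi-likelihood F test on group, Benjamini-Hochberg over 14016 genes, threshold 0.05, 1 residual degree of freedom, common dispersion 0.0119). The control has no replicate and was assumed to vary like the labelled libraries. The spread of each gene was borrowed mostly across genes (prior degrees of freedom 45.7, against 1 residual). SE values derive from the F statistic. Per-library fold changes used a prior count of 2. Library 1 and library 2 differed above sampling noise (chi-square 5.31 per gene). Counting intervals are exact, conditional on the sum of both counts, and cover counting error only, since reads without molecular identifiers are not independent molecules.

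Alternatives were other scalings and filters, DESeq2 1.42.0, limma 3.58.1 on log2 FPKM, loess trends with length and GC content (span 0.5) removed, and leaving out each labelled library. The PRC2 genes and all lists were chosen with earlier results of these data known. Named genes on other lists are those past the threshold, up to 4 each way by the smaller per-library change, at a mean of 1 CPM or more.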

Additional observations from a re-analysis of the deposited data

How the results depend on the processing

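The number of genes called was 4352 of 14016 with edgeR. It moved to 1202 of 10483 with DESeq2, 1897 of 18258 without a filter on low counts and 1780 of 13709 with length and GC trends removed. Of the same 14016 genes it was 1623 and 1068 with limma on log2(FPKM + 1) and log2(FPKM + 0.1), and 2612 with the length trend removed. With library totals it was 3245 of 14016, with DESeq2 size factors 4330 of 14016, and at a mean of 5 CPM or more 3642 of 11904. Of the PRC2 genes 1 was called, and 0 were called with library totals, at a mean of 5 CPM or more, without a filter, with DESeq2, with either limma setting and with both trends removed. At an unadjusted p under 0.05 those settings gave 3, 3, 2, 0, 1, 1 and 2 PRC2 genes. Over all genes they gave 5233, 5043, 5213, 2526, 4782, 4693 and 4027. SUZ12 stayed above 0 in all 9 tested alternatives, from 0.17 to 0.52 on the log2 scale, and was called in the one with DESeq2 size factors. Signs turned for genes that did not pass: with the length trend removed EZH1 was at -0.16, RBBP4 at -0.08 and MTF2 at -0.11, and with both trends removed they were at -0.21, -0.17 and -0.21. KMT2D turned to -0.65 and -0.56 in these fits (edgeR adjusted p = 0.00836 and 0.0570). PHF19 was at -0.09 in both limma settings, where FPKM carries its differing length. The cause of the trend was not tested. Without library 1 or library 2, for which no test is possible, SUZ12 was at 0.32 or 0.66, RBBP4 at 0.42 or 0.44, JARID2 at 0.65 or 0.33, RBBP7 at 0.18 or 0.41 and EZH2 at 0.35 or 0.001. The sign of EZH1, EED, AEBP2 and PHF19 depended on which library was left out. No paired analysis was possible because the control group holds 1 library. Depth limits EED most, at 36 to 41 counts a library.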

Other observations

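BMI1, a PRC1 subunit singled out after its values were seen, differed between the libraries labelled KMT2D shRNA, with 193 counts (36.9 CPM) in library 1 and 432 counts (85.1 CPM) in library 2, against 194 counts (35.2 CPM) in the control. Its log2 fold change was 0.79 by edgeR (SE 0.25, adjusted p = 0.0132). After removal of the length trend it was 0.72 (edgeR adjusted p = 0.0519), and BMI1 did not pass with DESeq2 (adjusted p = 0.694). The call thus rested on library 2. A read-through gene, COMMD3-BMI1, shares its exons, so reads could be split between these identifiers. PHC3, another PRC1 subunit, rose by 0.55 on the log2 scale (edgeR adjusted p = 0.0166) and was at -0.19 with the length trend removed.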
